A study of Mus musculus with 12 samples.

Results

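The mouse spindloid tumour lines A1005 and A1129 were compared library by library: the 4 A1005 libraries against the 4 A1129 libraries, paired by treatment, 8 of the 12 libraries of the series. Both lines are primary cultures, each from a separate mammary tumour of an MMTV-Metmt;Trp53fl/+;Cre mouse. By genotype, all libraries share an activated Met transgene driven by the mouse mammary tumour virus promoter and Cre-mediated loss of a Trp53 allele. The paper also reports amplification of the endogenous Met locus in this model. Spindloid tumours consist of spindle-shaped, mesenchymal cells. Cells were grown as tumourspheres, floating colonies in serum-free medium with EGF and bFGF, and were treated for 24 h with the vehicle DMSO, the Met kinase inhibitor Crizotinib, the FGF receptor kinase inhibitor PD173074, or both (the combination). Each line has 1 library per treatment. The 4 libraries of a line are therefore 1 tumour line under 4 treatments, not independent replicates, and each line stands for 1 tumour. Total counts were 13031492 to 17750476 per library.

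As background, cells that have gone through an epithelial-mesenchymal transition lose cadherin-based junctions and make fibrous extracellular matrix, mainly the fibrillar collagens, which lysyl oxidases crosslink and matrix metalloproteinases cut. Mesenchymal cells of different embryonic regions keep different sets of homeobox, T-box and GATA transcription factors. Met, the receptor for hepatocyte growth factor (Hgf), and the FGF receptors, which use the adaptor Frs2, both signal to the ERK kinases.

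A gene was taken to separate the lines where its log2 CPM (the read count relative to the library total scaled by TMM, with a prior count of 2 added) differed by at least 2, that is 4-fold, in the same direction in each of the 4 treatments. No p-value is given for the lines, because each line has 1 library per treatment and its 4 libraries are not replicates of it, and an exact sign-flip test over 4 pairs could not go below a two-sided p of 0.125. The mean of the 4 paired log2 ratios, A1005 minus A1129, is given with its SD over the 4 treatments, which covers treatment and library spread within these lines but not the spread between tumours. It follows the levels of a gene in parentheses. Where a line had few reads, the fold is the ratio of the summed, scaled counts of its 4 libraries, with an exact 95% interval that covers counting error only. Against a line with no read in any of its 4 libraries the fold is a lower bound, set at 3 counts over those 4 libraries. Values of a line's 4 libraries are given in the order DMSO, Crizotinib, PD173074 and combination, and where levels are joined by "against" they are means over the 4 libraries of each line, the higher line first.

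The promoters of 3 of the most widely separated genes are shown because each was read in 1 line and hardly in the other. Col1a2 had 24827 reads in the A1005 libraries and 15 in those of A1129, Myh10 had 11 and 19443, and Prrx1 20 and 14588. The sequences are the 250 bases before the transcript start in RefSeq (GRCm38.p6, first start listed), with CG dinucleotides in capitals. They lie at chr6:4505368-4505617 (plus strand) for Col1a2, chr11:68691665-68691914 (plus strand) for Myh10 and chr1:163313651-163313900 (minus strand) for Prrx1. By the GENCODE gene positions given below, the windows of Col1a2 and Myh10 lie inside the gene. That of Prrx1 overlaps the start of its gene.
Col1a2: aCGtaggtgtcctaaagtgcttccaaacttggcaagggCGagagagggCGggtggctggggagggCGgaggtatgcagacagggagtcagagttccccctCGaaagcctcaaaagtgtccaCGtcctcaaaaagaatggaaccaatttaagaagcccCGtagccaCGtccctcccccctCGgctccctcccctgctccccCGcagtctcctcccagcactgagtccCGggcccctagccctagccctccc
Myh10: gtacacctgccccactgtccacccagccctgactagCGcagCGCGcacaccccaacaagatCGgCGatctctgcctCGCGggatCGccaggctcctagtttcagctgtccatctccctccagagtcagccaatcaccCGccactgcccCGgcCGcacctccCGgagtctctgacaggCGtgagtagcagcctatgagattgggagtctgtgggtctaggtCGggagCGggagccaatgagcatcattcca
Prrx1: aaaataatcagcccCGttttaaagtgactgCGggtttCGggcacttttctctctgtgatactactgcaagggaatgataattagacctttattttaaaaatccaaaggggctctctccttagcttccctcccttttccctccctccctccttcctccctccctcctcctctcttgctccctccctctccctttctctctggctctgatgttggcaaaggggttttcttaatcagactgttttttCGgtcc
The letters CG, which read the same on both strands, stood 11 times in the Col1a2 window, 15 times in that of Myh10 and 4 times in that of Prrx1. The median over the 27025 promoters of the same length was 6, with quartiles of 2 and 16. No comparison over all separated genes was made. A promoter was available for 68.1% of the A1005-higher and 73.7% of the A1129-higher genes, beside 72.5% of all genes tested. None was available for Col1a1 and Lox.

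Of 13836 genes tested, 634 (4.58%) were at least 4-fold higher in A1005 in every treatment and 395 (2.85%) were at least 4-fold higher in A1129 in every treatment. Together they were 1029 genes (7.44%). At 1008 of them the levels of the 2 lines did not overlap over the 8 libraries. The rule used the same values, so this adds no separate support. No share of such genes among all genes tested is given beside it. Genes that missed the rule, such as Yap1 below, could also have levels that did not overlap. In the DMSO libraries, 1016 genes were 4-fold higher in A1005 (7.34%) and 584 in A1129 (4.22%). In those with Crizotinib, 1008 genes were 4-fold higher in A1005 (7.29%) and 598 in A1129 (4.32%). In those with PD173074, 999 genes were 4-fold higher in A1005 (7.22%) and 614 in A1129 (4.44%). In those with the combination, 992 genes were 4-fold higher in A1005 (7.17%) and 663 in A1129 (4.79%). As a measure of the spread within a line, 24 genes were 4-fold apart between the Crizotinib and DMSO libraries of A1005 (0.173%) and 25 between those of A1129 (0.181%). The lines thus differed at more genes than these pairs of libraries of the same line. Between the combination and DMSO libraries more genes were 4-fold apart within a line. These were 373 higher (2.70%) and 349 lower (2.52%) with the combination in A1005, and 639 (4.62%) and 418 (3.02%) in A1129. The median log2 ratio over all genes tested lay between -0.02 and 0.015 in the 4 treatments.

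Many of the separated genes were hardly read in the lower line. Of the 634 A1005-higher genes, 325 had under 10 counts in each A1129 library and 77 had none. Of the 395 A1129-higher genes, 267 had under 10 counts in each A1005 library and 91 had none. Such genes entered the test through the higher line alone, so their number says nothing of how often a gene differs. The same limit holds for the shares of the gene lists given below. At 8-fold, 357 and 236 genes remained, and at 64-fold 48 and 44. At the threshold itself, the smallest log2 ratio of Snai1 was 2.004 and that of H2-D1 2.009, just inside, and that of Npr1 was 1.998, just outside. In the other direction Trpv2 stood at 2.002 inside and Tmem200a at 1.999 outside.

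**Figure D1:**
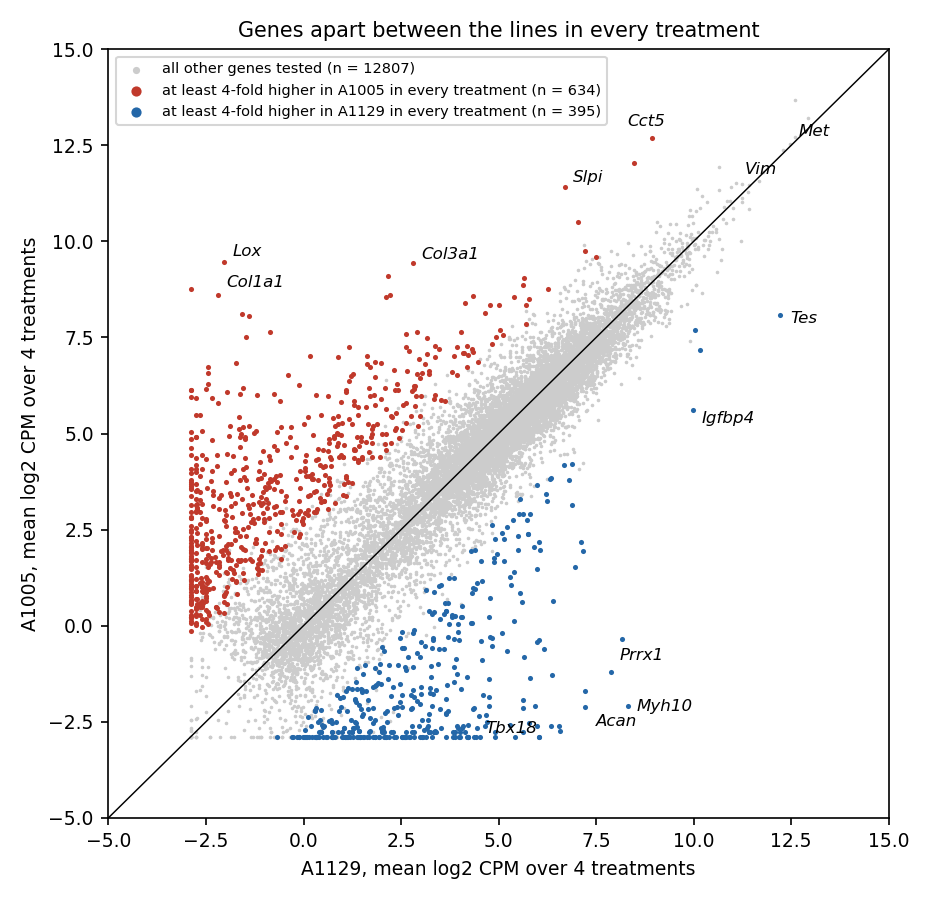
Mean log2 CPM over the 4 treatments in A1129 (x axis) and A1005 (y axis), 1 point per gene, with a prior count of 2. The 634 genes higher in A1005 in every treatment (red) and the 395 higher in A1129 (blue) lie off the diagonal, many of them at the level of no reads in the other line, while Met and Vim lie near the diagonal.

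Genes of the fibrillar matrix were among those with the widest gaps. Col1a1, the alpha 1 chain of type I collagen (ENSMUSG00000001506, chromosome 11 from 94936224 to 94953042 in GRCm38), had 229, 248, 531 and 759 CPM in the A1005 libraries and 0, 0, 0.143 and 0.313 CPM in those of A1129. The lines did not overlap, and A1129 had 7 reads in all against 28987 in A1005, a difference of 4027-fold (95% counting interval 1954 to 10018). Col1a2, its partner chain in the type I collagen trimer (ENSMUSG00000029661, chromosome 6 from 4504814 to 4541544), had 132, 132, 441 and 773 CPM in A1005 and 0, 0.198, 0.429 and 0.376 CPM in A1129. Both chains were thus nearly unread in A1129 under every treatment. Lox, the lysyl oxidase that crosslinks collagen (ENSMUSG00000024529, chromosome 18 from 52516067 to 52529867), had 481, 360.5, 1087 and 1303 CPM in A1005 and 0.0658, 0.132, 0.0716 and 0.188 CPM in A1129, a difference of 7344-fold (95% counting interval 3564 to 18268). In A1005 all 3 genes were higher with PD173074 and with the combination than with DMSO.

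Further collagens went the same way. Col3a1, the type III collagen chain, had 453, 487, 906 and 1167 CPM in A1005 and 3.42, 3.24, 9.59 and 19.9 CPM in A1129, a mean log2 ratio of 6.64 ± 0.59. Col5a3 had 204, 253, 259 and 382 CPM in A1005 and 0.329, 0.264, 0.429 and 0.0627 CPM in A1129. These 2 chains differed in that Col3a1 was still read in A1129, most with the combination, while Col5a3 had 16 reads in all 4 A1129 libraries. Col12a1 (mean 56.2 against 2.42 CPM), Col7a1 (65.2 against 8.19 CPM) and Col5a2 (5.59 against 0.0478 CPM) were also higher in A1005. Among other matrix proteins, fibulin 1 (Fbln1) had 108 and 0.0508 CPM, fibulin 2 (Fbln2) 141 and 11.8 CPM, thrombospondin 1 (Thbs1) 204 and 19 CPM, and Matn2 174 and 14.9 CPM in A1005 and A1129. Prelp, a proteoglycan, was read at 8.20 to 28.1 CPM in A1005 and not at all in A1129, at least 336-fold higher. Emilin2, an elastic fibre protein, had 496, 523, 425 and 179.7 CPM in A1005 and 8.16, 8.39, 5.30 and 0.815 CPM in A1129, a mean log2 ratio of 6.42 ± 0.78.

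A1129 made other matrix genes. Acan, the core protein of the cartilage proteoglycan aggrecan, had 209.9, 189, 178 and 70.4 CPM in A1129 and 0, 0.0683, 0.0604 and 0.389 CPM in A1005, a difference of 1104-fold (95% counting interval 582 to 2416). Col4a6, a basement membrane collagen chain on the X chromosome, had 88.9, 105, 134 and 401 CPM in A1129 and 0.234, 0.0683, 0.0604 and 0.50 CPM in A1005, a difference of 824-fold (95% counting interval 491 to 1507). Each of these genes had under 20 reads in the 4 A1005 libraries together. Mgp, the matrix Gla protein that inhibits calcification, had 273, 446, 208 and 258 CPM in A1129 and 0.234, 0.205, 0.907 and 2.83 CPM in A1005, and its level in A1005 was highest with the combination. Col11a1 (mean 9.71 against 0.0278 CPM) and Col23a1 (14.9 against 0.236 CPM) completed the A1129-higher members of the list. In the list of collagens and matrix genes, 12 of 38 tested members were higher in A1005 and 4 in A1129, with a median log2 ratio of 0.86, beside 4.58% and 2.85% and a median of 0.00 over all genes. Fkbp10, a collagen prolyl isomerase and chaperone outside that list, had 148, 145, 133 and 145 CPM in A1129 and 3.75, 3.28, 4.11 and 3.78 CPM in A1005 (-5.21 ± 0.18), so it was higher in the line that had almost no type I collagen transcripts.

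**Figure D2:**
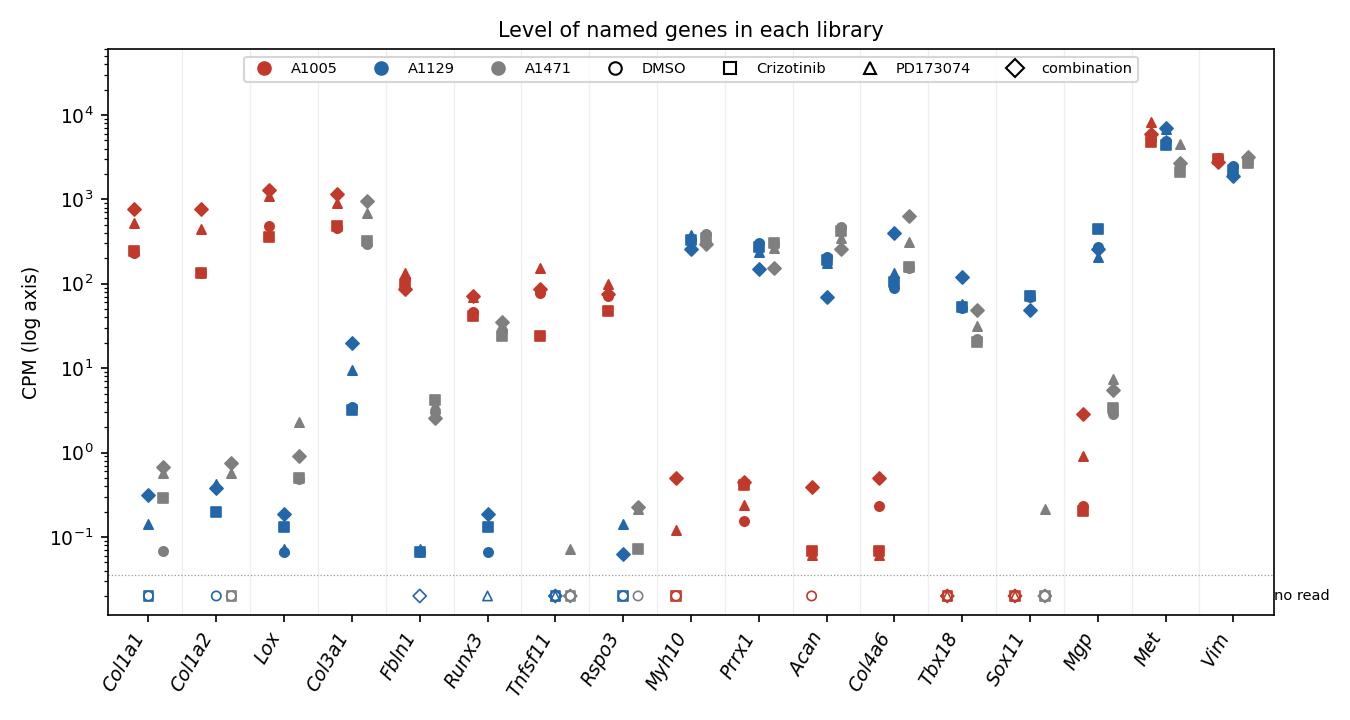
CPM (log axis) of 17 genes in each of the 12 libraries, with line by colour and treatment by symbol, open symbols below the dotted line marking libraries with no read. Col1a1, Col1a2, Lox, Tnfsf11 and Rspo3 were high in A1005 and near 0 in A1129 and A1471, Myh10, Prrx1, Acan, Col4a6 and Tbx18 were high in A1129 and A1471, and Met and Vim at similar levels in A1005 and A1129.

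Of the matrix proteases and their inhibitors, 11 of 33 tested were higher in A1005 and 3 in A1129 (33.3% and 9.09%, beside 4.58% and 2.85% of all genes). Stromelysin 1 (Mmp3) had 533, 916, 79.7 and 40.8 CPM in A1005 and 44.9, 65.1, 13.9 and 1.63 CPM in A1129 (3.61 ± 0.84). The collagenase Mmp13 had 41.1, 46.3, 50.3 and 114 CPM in A1005 and 0.723, 0.726, 0.429 and 0.313 CPM in A1129. The lines did not overlap at Mmp13, while at Mmp3 both lines had lower levels with PD173074 and the combination, and A1005 with the combination was below A1129 with DMSO. Mmp10 (mean 28.9 against 0.801 CPM), Mmp19 (60.5 against 12.3 CPM), Mmp28 (16.1 against 1.48 CPM), the gelatinases Mmp9 (13.4 against 2.13 CPM) and Mmp2 (7.31 against 0.146 CPM), Adamts12 (16.4 against 0.991 CPM) and the membrane endopeptidase Mme (132 against 10.8 CPM) went the same way. Timp3, a metalloproteinase inhibitor, was among them too, with 59.5 against 1.07 CPM. Higher in A1129 were Adamts9 (121 against 8.68 CPM), a proteoglycan-cutting enzyme, Mmp15 (5.09 against 0.0429 CPM) and Mmp17 (2.46 against 0.136 CPM).

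Of 26 tested integrin and laminin genes, matrix receptors and basement membrane proteins, 4 were higher in A1005 and 1 in A1129 (15.4% and 3.85%, beside 4.58% and 2.85% of all genes). Laminin alpha 4 (Lama4) had 79.9 against 0.871 CPM, Lamb3 15.3 against 0.408 CPM, and the integrin chains Itgb5 221 against 40.0 CPM and Itgb3 74.9 against 5.93 CPM in A1005 and A1129. The basement membrane linker Nid2 was the one A1129-higher member, at 9.43 CPM with 2 reads in A1005. Of 25 adhesion molecules (8.0% and 16.0%, against the same shares), 4 were higher in A1129, namely Jam3, Mcam, Pcdh9 and Igsf10, and 2 in A1005, the neural adhesion molecule Chl1 (mean 16.6 CPM) and Pcdh7 (17.8 against 1.29 CPM). Jam3, a junctional adhesion molecule, was read at 15.4 to 20.8 CPM in A1129 and not at all in A1005, at least 385-fold higher. Mcam had 16.4 against 0.747 CPM.

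Among the better-counted genes higher in A1129, Myh10, the heavy chain of non-muscle myosin IIB, had the widest gap by its smallest ratio (ENSMUSG00000020900, chromosome 11 from 68691559 to 68816632). Its level was 331, 329, 381 and 257 CPM in A1129 and 0, 0, 0.121 and 0.50 CPM in A1005, a difference of 1818-fold (95% counting interval 1016 to 3641). Its transcripts thus fell in the same range in all A1129 libraries and were close to 0 in all A1005 libraries. Gjc1, the gap junction protein connexin 45, had 47.7, 45.8, 43.1 and 26.1 CPM in A1129 and 2.34, 2.19, 1.93 and 1.5 CPM in A1005 (-4.24 ± 0.17). Obsl1, a cytoskeletal linker, had 48.6 against 1.45 CPM, and Tpm2, a tropomyosin, 103 against 18.2 CPM. Signalling genes followed: Igfbp4, a binding protein of insulin-like growth factors, had 1613, 1789, 1043 and 350.3 CPM in A1129 and 77.8, 86.8, 36.0 and 22.8 CPM in A1005 (-4.38 ± 0.38). Both lines had their lowest level with the combination, and the gap between them was kept. The cannabinoid receptor Cnr1 had 125 against 3.06 CPM, the receptor tyrosine phosphatase Ptprf 73.9 against 4.04 CPM, the Rab regulators Tbc1d16 88.1 against 1.53 CPM and Dennd2a 63.0 against 2.75 CPM, and carboxypeptidase E (Cpe), which processes prohormones, 1068 against 212 CPM.

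On the A1005 side, Angpt1, the ligand of the endothelial receptor Tek, had 138, 107, 251 and 426 CPM in A1005 and 0.132, 0.330, 0.501 and 1.07 CPM in A1129, a difference of 475-fold (95% counting interval 334 to 699). Gfpt2, a rate-limiting enzyme of hexosamine synthesis, had 214, 215, 206 and 119 CPM in A1005 and 0.329, 0.264, 0.215 and 0.125 CPM in A1129, a difference of 794-fold (95% counting interval 473 to 1453). Both genes had reads in the A1129 libraries, but none of these reached 2 CPM. Cyp26b1, which breaks down retinoic acid, had 61.3, 53, 139.7 and 156 CPM in A1005 and 0.329, 0.198, 0.787 and 2.26 CPM in A1129 (6.91 ± 0.60). The water channel Aqp5 had 549.6 against 5.21 CPM. Slpi, a secreted inhibitor of leukocyte proteases, had 3962, 3373, 2869 and 1504 CPM in A1005 and 114, 152, 121 and 54.5 CPM in A1129 (4.73 ± 0.29), and was among the most counted separated genes. S100a4, a calcium-binding protein long used as a fibroblast marker, had 861 against 149.8 CPM (2.54 ± 0.28). Rps3a3 (387 against 4.60 CPM) and Gm5886 (134 against 1.08 CPM) also ranked among the widest gaps, but both resemble other genes in sequence and the handling of shared reads is not given, so their values are uncertain.

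Of 54 tested developmental transcription factors, 9 were higher in A1005 and 12 in A1129, 16.7% and 22.2% against 4.58% and 2.85% of all genes. Another 45 of the 99 listed factors had too few reads to be tested. Tbx18, Sox11, Zfhx4 and Foxs1 had no read in the lower line and entered the test through the higher line alone. These shares therefore do not say how often such a factor differs. In A1129, Tbx18, a T-box factor of embryonic mesenchyme, had 51.2, 53.4, 57.4 and 121 CPM and no read in any A1005 library, at least 1479.7-fold higher. Sox11, a SoxC factor of embryonic progenitors, had 70.5, 71.2, 73.0 and 48.6 CPM in A1129 and again no read in A1005, at least 1352-fold higher. Tbx3, which is needed for mammary gland development, had 60.7, 66.0, 67.6 and 58.3 CPM in A1129 and 0.546, 0.547, 0.604 and 0.778 CPM in A1005 (-6.40 ± 0.27). No A1005 library came near A1129 at any of the 3 genes. Gata2 had 152, 185, 113 and 114 CPM in A1129 and 5.23, 5.12, 3.63 and 3.78 CPM in A1005 (-4.93 ± 0.14), and its relative Gata3, a luminal mammary factor, had 13.5 against 0.731 CPM. The zinc finger factors Osr1 (65.0 against 6.17 CPM) and Zfhx4 (16.2 CPM against no read) and the helix-loop-helix factor Ebf3 (16.0 against 0.0139 CPM) were also higher in A1129. Eya1, Dlx2, Pax6 and Gata4 were separated too, at means of 1.22 to 2.20 CPM in A1129.

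Other factors of the list were higher in A1005 than in A1129. At least Runx3 was not particular to A1005, since it was also read in A1471, as given below. Irx3, an Iroquois homeobox factor, had 94.9, 88.7, 80.4 and 41.2 CPM in A1005 and 0.197, 0.198, 0.143 and 0.313 CPM in A1129, a difference of 343-fold (95% counting interval 200.4 to 645). Runx3, a Runt-domain factor, had 46.6, 41.6, 69.0 and 71.4 CPM in A1005 and 0.0658, 0.132, 0 and 0.188 CPM in A1129, a difference of 589-fold (95% counting interval 270.1 to 1605). Each was read fewer than 20 times in the 4 A1129 libraries. The distal-less factors Dlx3 (34.0 against 0.356 CPM) and Dlx4 (15.8 against 0.365 CPM), which are adjacent genes, were both higher in A1005. The forkhead factors Foxf1 (26.5 against 0.486 CPM), Foxf2 (46.3 against 8.39 CPM), Foxq1 (29.7 against 2.71 CPM) and Foxs1 (1.53 CPM against no read) and Wt1 (25.4 against 0.548 CPM) completed the list. Of 39 Hox genes, 2 had enough reads to be tested and neither was separated.

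The label of a spindle-shaped, mesenchymal tumour was checked on marker genes. Vim, the mesenchymal intermediate filament, had 3095, 3019.7, 2974 and 2737 CPM in A1005 and 2482, 2214, 2169 and 1903 CPM in A1129. Cdh1, which encodes E-cadherin, had 1 read in the 4 A1005 libraries and 14 in those of A1129, and Epcam had 32 and 20 reads. Neither epithelial gene passed the filter on low counts. Twist1 had 125, 132, 84.5 and 61.1 CPM in A1005 and 115, 126, 91.7 and 53.9 CPM in A1129 (0.07 ± 0.13), ranges that overlapped. Zeb1 stood at 52.8 to 64.7 CPM in A1005 and 58.5 to 73.9 CPM in A1129. Not all mesenchymal genes were read. N-cadherin (Cdh2) had 3 and 0 reads over the 4 libraries of A1005 and of A1129, Snai2 0 and 31, Postn 5 and 38 and Fap 1 and 0, and Cdh11 and Thy1 had none in either line. The junction gene Jup, which epithelia express, was at 73.9 to 149 CPM in A1005 and 34.7 to 89.9 CPM in A1129.

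Between the lines 4 of 15 tested mesenchymal genes were separated, 2 in each direction (13.3% and 13.3%, beside 4.58% and 2.85% of all genes). Prrx1, a paired-related homeobox factor of limb and craniofacial mesenchyme and an inducer of epithelial-mesenchymal transition (ENSMUSG00000026586, chromosome 1 from 163245119 to 163313710), had 308, 275, 239.9 and 149.7 CPM in A1129 and 0.156, 0.410, 0.242 and 0.445 CPM in A1005, a difference of 750.0-fold (95% counting interval 485 to 1228). Foxc2, a forkhead factor with a like role, had 29.2, 29.9, 23.4 and 30.7 CPM in A1129 and 1.25, 1.43, 0.483 and 0.167 CPM in A1005. Snai1, a repressor of Cdh1, went the other way, with 129, 106, 144 and 89.6 CPM in A1005 and 25.9, 26.2, 28.1 and 12.3 CPM in A1129 (2.38 ± 0.35). The lines thus shared Twist1 and Zeb1 and differed in Prrx1, Foxc2 and Snai1. Of 18 tested epithelial genes (27.8% and 5.56%), 5 were higher in A1005. Among them were the keratins Krt19 (mean 27.8 CPM, with 2 reads in A1129), Krt8 (21.9 against 1.82 CPM) and Krt17 (2.12 CPM, with 3 reads in A1129). The claudin Cldn3 (3.25 CPM, with no read in A1129) and Trp63 (5.82 against 0.337 CPM), the p53 relative of basal epithelium, were the others. Cldn4 was the 1 member higher in A1129, at 0.912 CPM and with 1 read in A1005. The remaining 18 of the 36 listed genes had too few reads to be tested. Krt19, Krt17, Cldn3 and Cldn4 were hardly read in the lower line, so these shares do not say how often an epithelial gene differs. Krt18, the usual partner of Krt8, was not separated, at 5.74 to 19.3 CPM in A1005 and 19 to 49.4 CPM in A1129.

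Of 27 tested stemness genes, 2 were higher in A1005 and 1 in A1129, 7.41% and 3.70%, near the 4.58% and 2.85% of all genes. Igf2bp1, an RNA-binding protein of fetal and tumour cells, had 117, 118, 115 and 81.3 CPM in A1005 and 4.14, 2.31, 3.86 and 2.51 CPM in A1129 (5.04 ± 0.38). Lgr6, an R-spondin receptor, had 94.3 against 7.02 CPM, and its gap varied between treatments (4.62 ± 1.87). Sox2, a pluripotency factor, had 6.97, 6.60, 6.51 and 4.01 CPM in A1129 and no read in A1005. Cd44, a hyaluronan receptor used to mark tumour-initiating cells, was not separated. It had 431, 532, 320.3 and 176 CPM in A1005 and 561, 591, 349 and 74.6 CPM in A1129, so that A1129 had slightly more with DMSO and A1005 had more with the combination (log2 ratio 1.24). Hmga2 had 536, 632, 342 and 84.9 CPM in A1005 and 376, 408, 226 and 44.3 CPM in A1129 (0.67 ± 0.19) and was lowest with the combination in both lines. Mybl2, a proliferation factor, had a mean log2 ratio of -0.24 ± 0.24, and Ncam1 of 0.85 ± 0.38.

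The genes of the drug targets were not separated. Met had 5091, 4825, 8327 and 5979.9 CPM in A1005 and 4978, 4434, 6881 and 6920.5 CPM in A1129, and the sign of the log2 ratio changed between treatments (0.03, 0.12, 0.28 and -0.21). Transcripts of the Met transgene and of the endogenous gene cannot be told apart in these counts, and amplification of the endogenous locus was not tested. Fgfr1 had 319, 325, 244 and 217 CPM in A1005 and 256, 337, 248 and 302 CPM in A1129 (-0.06 ± 0.32), and Frs2 47.0, 54.0, 60.3 and 62.9 CPM and 33.1, 35.9, 39.2 and 55.6 CPM (0.47 ± 0.20). Fgfr2 and Fgfr4 were close to 0, with 1 and 3 reads over the A1005 libraries and 46 and 19 over those of A1129, and Fgfr3 was at 1.33 to 2.80 CPM and 0.429 to 1.19 CPM. Of 15 tested genes of the Met and FGF receptor axis 1 was higher in A1005 and 0 in A1129. These shares, 6.67% and 0%, are near the 4.58% and 2.85% of all genes. The separated gene was Hgf, the Met ligand. It had 4.45, 3.83, 3.32 and 2.17 CPM in A1005 and 0.0658, 0.0660, 0.215 and 0 CPM in A1129, which is 207 against 5 reads, a difference of 40.3-fold (95% counting interval 17 to 125). The A1005 libraries were all above those of A1129, at a low level.

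Of 24 other receptor tyrosine kinases tested, 4 were higher in A1005 and 0 in A1129 (16.7% and 0%, against 4.58% and 2.85% of all genes). Ephb2, an ephrin receptor, had 53.9, 53.8, 37.0 and 19.1 CPM in A1005 and 1.45, 2.18, 1.79 and 1.57 CPM in A1129 (4.35 ± 0.66). Egfr, the EGF receptor, had 4.53, 8.20, 7.68 and 19.1 CPM in A1005 and 0.197, 0.0660, 0.143 and 0.940 CPM in A1129 (4.54 ± 0.69). The vascular receptor Flt4 (7.77 CPM, at least 159-fold higher) and Epha4 (6.47 CPM, at least 145-fold higher) had no read in A1129. Flt4 and Epha4 were thus read in A1005 alone and Ephb2 in both lines, while Egfr was hardly read in A1129, at 0.940 CPM or less. Among 24 growth factor ligands (12.5% and 4.17%), 3 were higher in A1005, Angpt1 and with it Ereg, an EGF receptor ligand, and Pdgfd. Ereg had 57.1, 57.2, 30 and 8.12 CPM in A1005 and 1 read in all A1129 libraries. Nrg2, a ligand of ErbB receptors, was the 1 ligand higher in A1129 (4.52 CPM, at least 92.9-fold higher). None of the 18 ERK feedback genes tested, which report on the pathway downstream of these receptors, was separated (median log2 ratio 0.36).

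Of 45 tested chemokine, cytokine and receptor genes, 13 were higher in A1005 and 1 in A1129, or 28.9% and 2.22% beside 4.58% and 2.85% of all genes, with a median log2 ratio of 1.37. The A1129 share was thus near that of all genes. The monocyte chemokine Ccl2 had 287, 323, 241 and 573 CPM in A1005 and 15.8, 23, 18 and 14.4 CPM in A1129 (4.25 ± 0.73), and its neighbour Ccl7 had 74.1 against 0.581 CPM. Tnfsf11 (RANKL), the osteoclast and mammary progenitor cytokine, had 77.7, 24.1, 153 and 86.8 CPM in A1005 and no read in A1129, at least 1763-fold higher. The neutrophil chemokine Cxcl5 had 339.7, 264, 436 and 500.5 CPM in A1005 and 55.4, 36.1, 74.6 and 20.2 CPM in A1129 (3.16 ± 0.98). In each of these genes every A1005 library was above every A1129 library. The alarmins Il33 (108 against 7.49 CPM) and Il18 (30.6 against 2.27 CPM), the interleukin 1 antagonist Il1rn (42.8 against 0.0514 CPM), Il4ra (139 against 19.6 CPM), Tnfrsf9 (129.9 against 15.1 CPM), Tnfsf9, Ccl9, Cxcl3 and Cxcl14 were the others. Cxcl12, the ligand of Cxcr4, was the 1 member higher in A1129, with 4.01, 2.51, 12 and 68.7 CPM there and 0, 0.0683, 0.181 and 0.222 CPM in A1005.

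Of 52 tested interferon and antigen presentation genes, 14 were higher in A1005 and 0 in A1129 (26.9% and 0%, beside 4.58% and 2.85% of all genes, median log2 ratio 1.37). The class I heavy chain H2-D1 had 657, 627, 756 and 1132 CPM in A1005 and 163, 148, 170.2 and 251 CPM in A1129 (2.10 ± 0.07). The peptide transporter chains Tap1 (22.7 against 1.93 CPM) and Tap2 (78.9 against 5.66 CPM), the immunoproteasome subunits Psmb8 (99.0 against 2.38 CPM) and Psmb9 (19 against 0.915 CPM) and Nlrc5, the activator of class I genes (23.5 against 1.08 CPM), were higher with it. The proteasome, transporter and heavy chain steps of the pathway thus each had a separated gene. Tap1, Tap2, Psmb8 and Psmb9 are neighbours on chromosome 17. H2-Q4, H2-Q6, H2-Q7 and H2-M3 were separated as well, but class I genes are near copies of each other and their counts may be shared. Of the interferon-induced genes, Rsad2 (12.7 against 0.593 CPM), Ifih1 (7.78 against 0.716 CPM), Oas1a and Mx1 were separated. Of 11 complement genes (27.3% and 0%), 3 were higher in A1005: C1s1 (51.7 against 2.18 CPM), C1ra (38.0 against 3.19 CPM, with a near copy in the genome) and Masp1 (71.7 against 3.59 CPM), all of them proteases that start the cascade.

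Some leukocyte markers were higher in A1005 as well. Over 16 leukocyte markers, the summed level was 61.0 to 90.7 CPM in A1005 and 23.5 to 29.9 CPM in A1129. Nearly all of it came from 3 genes. Ptprc, which encodes the leukocyte antigen CD45, had 13.6, 14.0, 20.5 and 17.5 CPM in A1005 and 4 reads in A1129. Cd68 was at 14.3 to 24.4 and 4.21 to 10.8 CPM, and Cd14 at 19.3 to 57.1 and 17.6 to 24.7 CPM. The other 13, with the macrophage markers Lyz2, Csf1r, Adgre1 and Tyrobp and the lymphocyte marker Cd3e among them, were below 1 CPM in all 8 libraries, with Lyz2 and Tyrobp at 0. The part of Ptprc, Cd68 and Cd14 in the cytokine and antigen presentation counts was not tested. Of 9 endothelial markers 7 were below 1 CPM in all 8 libraries, and the summed level was 4.03 to 7.39 CPM in A1005 and 1.12 to 2.63 CPM in A1129. Of 7 luminal mammary markers tested, 3 were higher in A1005 (Csn3, Ltf and Krt8) and 1 in A1129 (Gata3). These are 42.9% and 14.3%, beside 4.58% and 2.85% of all genes. Of 5 adipocyte markers, Lpl was higher in A1005 and Pparg in A1129, and of 8 smooth muscle genes, Des was higher in A1005 (2.27 against 0 CPM) and Tpm2 in A1129. The 1 skeletal muscle marker tested, the progenitor factor Pax7, was higher in A1129, at 0.689 to 2.76 CPM. None of the 4 neural and Schwann cell markers tested was separated. With so few members tested in each of these lists, the shares describe single genes and not a cell type.

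Of 27 tested genes of the Wnt pathway, 7 were higher in A1005 and 1 in A1129, 25.9% and 3.70% beside 4.58% and 2.85% of all genes. Rspo3, an R-spondin that amplifies Wnt signals, had 70.7, 47.2, 99.9 and 75.6 CPM in A1005 and 0, 0, 0.143 and 0.0627 CPM in A1129, a difference of 1494-fold (95% counting interval 511 to 7249). The ligand Wnt10a had 138, 119, 221 and 282 CPM in A1005 and 7.76, 6.27, 18.2 and 6.77 CPM in A1129 (4.32 ± 0.74), and its neighbour Wnt6 had 51.9 against 0.930 CPM. Ligands and amplifiers were not alone in this. The antagonist Sfrp1 (70.5 against 6.83 CPM), the inhibitor Nkd2 (5.63 against 0.164 CPM), Wnt9a and the receptor Fzd1 (32.6 against 3.46 CPM) were also higher in A1005, and the receptor Fzd3 in A1129 (17.9 CPM, with 1 read in A1005). Among TGF beta and BMP genes (14.3% and 10.7%), 4 of 28 were higher in A1005 (Inhbb, Bmp4, Fstl1 and Fstl3) and 3 in A1129 (Inha, Chrdl1 and Bambi). Fstl1 had 26.1 against 0.754 CPM, Fstl3, which binds activin, 27.4 against 1.87 CPM, and Chrdl1, a BMP antagonist, 12.2 CPM in A1129 with 1 read in A1005.

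In the Notch list, the receptor Notch4 was higher in A1005 (mean 16.1 against 0.244 CPM) and the ligand Dll4 in A1129, with 25, 26.6, 21.8 and 1.75 CPM there and 0.156, 0.137, 0.0604 and 0 CPM in A1005. This receptor and this ligand thus went in opposite directions, and Hey1 was the second A1129-higher gene of 13 tested. The shares were 7.69% and 15.4%, beside 4.58% and 2.85% of all genes. The other 10 tested genes of the list were not separated. Hes1, a Notch target, missed the threshold in 2 treatments. It had 27.5, 24.0, 29.7 and 25.3 CPM in A1005 and 7.30, 7.13, 4.37 and 1.0 CPM in A1129, and the gap was wider with the combination, where A1129 was lowest (log2 ratio 1.89 with DMSO and 4.48 with the combination). Of 39 guidance genes 6 were higher in A1005 and 0 in A1129 (15.4% and 0%, all genes 4.58% and 2.85%). Semaphorin 3C (Sema3c) had 57.8, 50.3, 136 and 199.7 CPM in A1005 and 2.30, 0.792, 3.01 and 4.57 CPM in A1129 (5.30 ± 0.51), and the X-linked ephrin Efnb1, a ligand of Ephb2, had 16.3 CPM in A1005 and 1 read in A1129.

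Of 53 tested genes of transport and drug metabolism, 13 were higher in A1005 and 2 in A1129, 24.5% and 3.77% where all genes had 4.58% and 2.85%. After Cyp26b1, the highest by level were Gstm2, a glutathione transferase (69.4 against 1.56 CPM), epoxide hydrolase 1 (Ephx1, 56.3 against 3.11 CPM) and the carbonyl reductase Cbr3 (24.1 against 2.40 CPM). The drug efflux pump Abcg2 was higher in A1129, with 20.1, 19.3, 20.5 and 20.2 CPM there and 1.33, 1.5, 1.81 and 3.22 CPM in A1005 (-3.34 ± 0.52), as was Cyp1a1 (5.95 against 0.584 CPM). Gstm2, Akr1c13 and the 2 Ugt1a genes in this list share sequence with relatives, and their counts are uncertain.

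Imprinted genes, which are expressed from 1 parental allele, were separated in 5 of 11 cases, 36.4% and 9.09% for A1005 and A1129 beside 4.58% and 2.85% of all genes. The neighbours Peg10 and Sgce on chromosome 6 were read at 11.9 to 32.6 CPM and 19.5 to 36.7 CPM in A1005, with 1 and 0 reads in A1129. Grb10, an adaptor that dampens growth factor signals, had 55.1, 49.3, 68.7 and 69.9 CPM in A1005 and 0, 0.264, 0.0716 and 0 CPM in A1129, a difference of 744-fold (95% counting interval 318 to 2291). H19, a non-coding RNA, was higher in A1129 (6.06 against 0.131 CPM). Peg10 and Sgce share a promoter region and went together, so they are not separate cases in this count. In the p53 pathway, with 4.0% and 4.0% near the 4.58% and 2.85% of all genes, 1 of 25 genes was higher in A1005 (Btg2, 26.1 against 4.46 CPM) and 1 in A1129 (Perp, 16.5 against 1.10 CPM). Trp53 itself was not separated, at 2.60 to 4.37 CPM in A1005 and 3.32 to 7.73 CPM in A1129, and gene counts do not tell a recombined from an intact allele. Cdkn2a, the Ink4a and Arf locus, had 297, 308, 266 and 416 CPM in A1005 and 509, 569.9, 431 and 761 CPM in A1129 (-0.81 ± 0.09), and its neighbour Cdkn2b went the other way (0.80 ± 0.22).

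Some lists held no separated gene. None of 32 cell cycle genes (median log2 ratio -0.18) and none of 12 mitochondrially encoded genes (median -0.11) was 4-fold apart in every treatment. At the shares of all genes, 4.58% and 2.85%, lists of this size would hold few such genes or none.

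**Figure D3:**
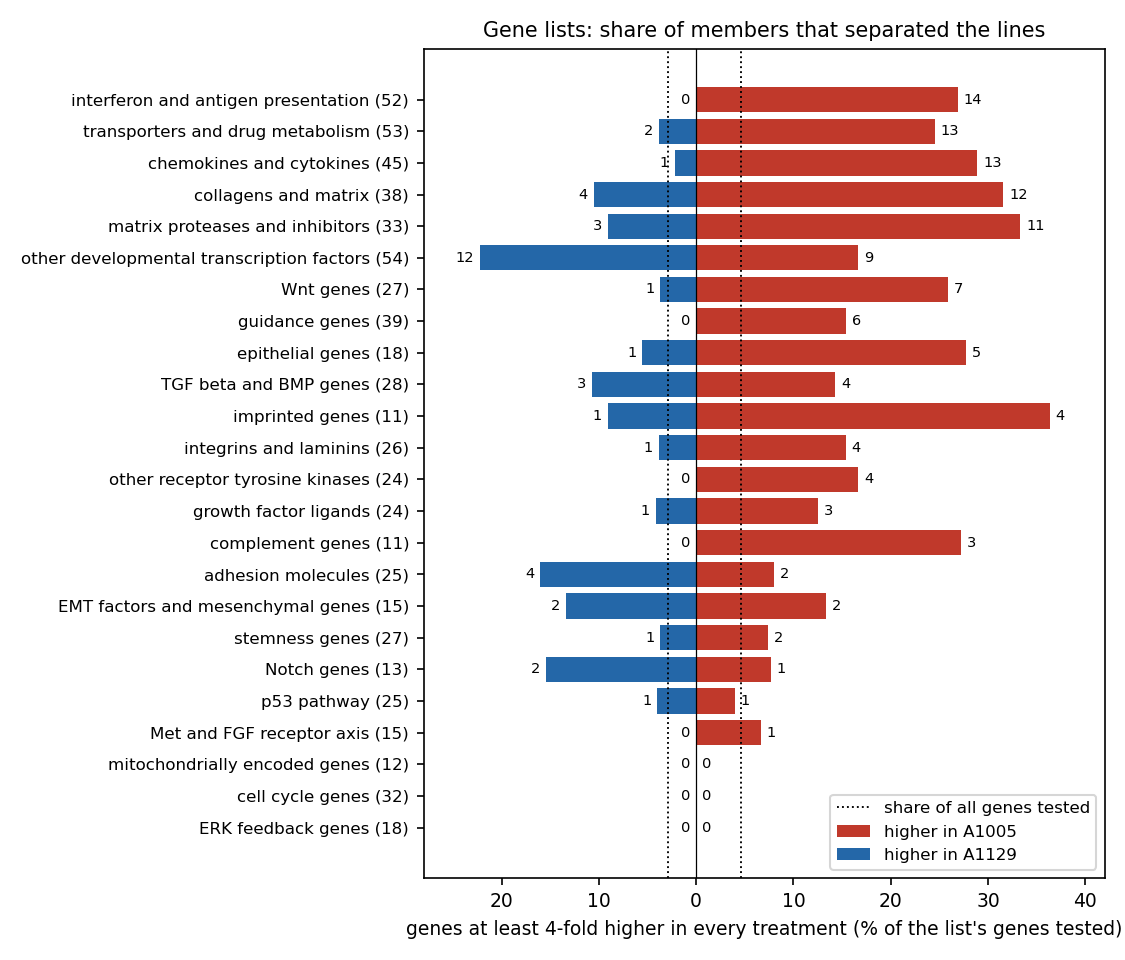
Share of each gene list (its number of tested genes in parentheses) that was at least 4-fold higher in A1005 (red, to the right) or in A1129 (blue, to the left) in every treatment, with the number of genes beside each bar, for lists with 10 or more tested genes. Dotted lines mark the shares of all genes tested, 4.58% and 2.85%. Listed genes with too few reads were not tested and are not in the shares. The imprinted, protease and matrix lists extend furthest to the right, and developmental transcription factors furthest to the left.

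The separated genes were not spread evenly along the genome (GRCm38, gene positions from GENCODE). On chromosome 15 the median log2 ratio of 554 tested genes was 0.96. Of them 58 (10.5%) were higher in A1005 and 8 (1.44%) in A1129, beside 4.58% and 2.85% of all genes. The same median was 0.94, 0.93, 0.93 and 1.02 in the 4 treatments, about 2-fold higher in A1005 with each of them. No other chromosome had a median beyond 0.6 on either side. Chromosome 19 (-0.54 over 487 genes), chromosome 8 (-0.51 over 756) and the X chromosome (-0.47 over 455) had the lowest medians. Gene copy number was not analysed here, and a difference in copies and one in transcription cannot be told apart from these counts.

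In windows of 21 neighbouring tested genes, runs in which at least 17 shared a sign in every treatment, with a median at least 0.5 from 0, were merged where they overlapped. There were 17 such runs with higher levels in A1005 and 19 with higher levels in A1129, and 7 of the former lay on chromosome 15 and held 456 genes. The run with the widest median lay at the start of chromosome 9 (3335140 to 17030896), where 52 genes from Alkbh8 to Gm5611 had a median of 1.61 and 11 were separated. It holds Yap1, the co-activator of the Hippo pathway, with 758, 836, 758 and 760.3 CPM in A1005 and 187, 199, 202 and 180.2 CPM in A1129 (2.02 ± 0.08), and the inhibitors of apoptosis Birc2 (141 against 36.9 CPM) and Birc3 (142 against 18.4 CPM). Mmp3, Mmp10 and Mmp13, described above, lie in the same run. Yap1 itself fell just short of the threshold, with a smallest log2 ratio of 1.91. Col1a2, described above, lies in a run on chromosome 6 (3372257 to 12749410) with a median of 0.79 over 27 genes. Of these, 5 were separated as higher in A1005 and 1 as higher in A1129. In the other direction, 88 genes from Snx16 to Pcdh18 on chromosome 3 (10417817 to 49757325) had a median of -1.09, of which 4 were separated in A1129. A run on chromosome 17 (34119541 to 34898265) lay over the class II and class III major histocompatibility region. It had a median of 0.91 over 23 genes and 6 separated. Among all genes tested, 4.58% were higher in A1005 and 2.85% in A1129.

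A short segment of chromosome 15 stood out within that chromosome. It lies around Cct5, a subunit of the chaperonin that folds actin and tubulin (ENSMUSG00000022234, chromosome 15 from 31590800 to 31601804). Within 1 Mb of Cct5, 8 of 10 tested genes were higher in A1005, beside 4.58% of all genes. Cct5 had 7094, 6903, 8058 and 4725 CPM in A1005 and 570.5, 527, 526 and 354 CPM in A1129 (3.75 ± 0.13). Dap, at -347 kb (middle to middle, minus for a lower coordinate), had 4554, 4555, 4412 and 3549 CPM and 334, 348, 313 and 424 CPM (3.59 ± 0.35). March6, a ubiquitin ligase of the endoplasmic reticulum, had 1420.3, 1369, 1808 and 1283 CPM and 111, 117, 118 and 186 CPM (3.49 ± 0.50). By summed counts these genes were 13.4-fold, 11.9-fold and 11-fold higher in A1005, beside about 2-fold for the median of the chromosome. Cmbl (4.75 ± 0.88), Ropn1l (4.57 ± 0.84) and Atpsckmt (3.92 ± 0.37) went with them, while Sema5a, 874 kb away, was lower in A1005 (-2.42 ± 1.32). This segment was chosen for a closer look after its values were seen.

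On both sides of Met on chromosome 6 genes differed between the lines, while Met itself was not separated (ENSMUSG00000009376, chromosome 6 from 17463800 to 17573980). Tes, a focal adhesion protein, at -433 kb from Met (middle to middle, minus for a lower coordinate), had 5423, 5302, 4522 and 3979 CPM in A1129 and 311, 359, 206 and 237 CPM in A1005 (-4.13 ± 0.24). Cav2, a caveolar coat protein, had 1147 against 148 CPM, higher in A1129 (-2.97 ± 0.31), and its neighbour Cav1 had a mean log2 ratio of -1.55 ± 0.31. The gap shrank towards Met, where it was 0.05 ± 0.20. Beyond Met the genes went both ways. Capza2, an actin capping protein, had 13162, 12581, 16562 and 11112 CPM in A1005 and 6805, 5895, 7216 and 5162 CPM in A1129 (1.09 ± 0.10), and St7 had a mean log2 ratio of 1.39 ± 0.19. Neither Capza2 nor St7 reached 4-fold, and the less counted Cftr, Wnt2 and Asz1 further on had mean log2 ratios of -1.17, -1.05 and -0.34. In all, 6 of 16 tested genes within 1 Mb of Met were higher in A1129 and 1 in A1005, beside 2.85% and 4.58% of all genes. The paper reports amplification of the endogenous Met locus in this model. Its part in these values was not tested. Gm4876 is annotated antisense to Tes and overlaps it, and its reads cannot be told from those of Tes without strand.

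On the X chromosome 53 of 455 tested genes (11.6%) were higher in A1129, beside 2.85% of all genes. In A1005, 10 were higher (2.20%), beside 4.58% of all genes. Of the 53, 21 had no read in any A1005 library and 39 had at most 3 in each. Armcx2, an armadillo repeat gene, had 45.8, 43.1, 51.1 and 58.0 CPM in A1129 and 1 read in all A1005 libraries, and Armcx4 had 44.2, 34.5, 51.6 and 41.1 CPM in A1129 and none in A1005 (at least 882-fold higher). Shroom2, a regulator of cell shape, had 19.4, 22.9, 27.1 and 63.9 CPM in A1129 and none in A1005 (at least 699.6-fold higher). These genes were thus read in A1129 and not, or once, in A1005. Xist, the RNA that coats the inactive X chromosome, was read in both lines, with 124, 135, 154 and 78.5 CPM in A1005 and 179.9, 197, 179 and 126 CPM in A1129 (-0.49 ± 0.20), and its neighbour Ftx had 8.72 against 1.79 CPM, the 1 of 3 tested genes of the X and Y list that was separated, higher in A1129. Armcx2, Armcx4 and Shroom2 were named after their values were seen.

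**Figure D4:**
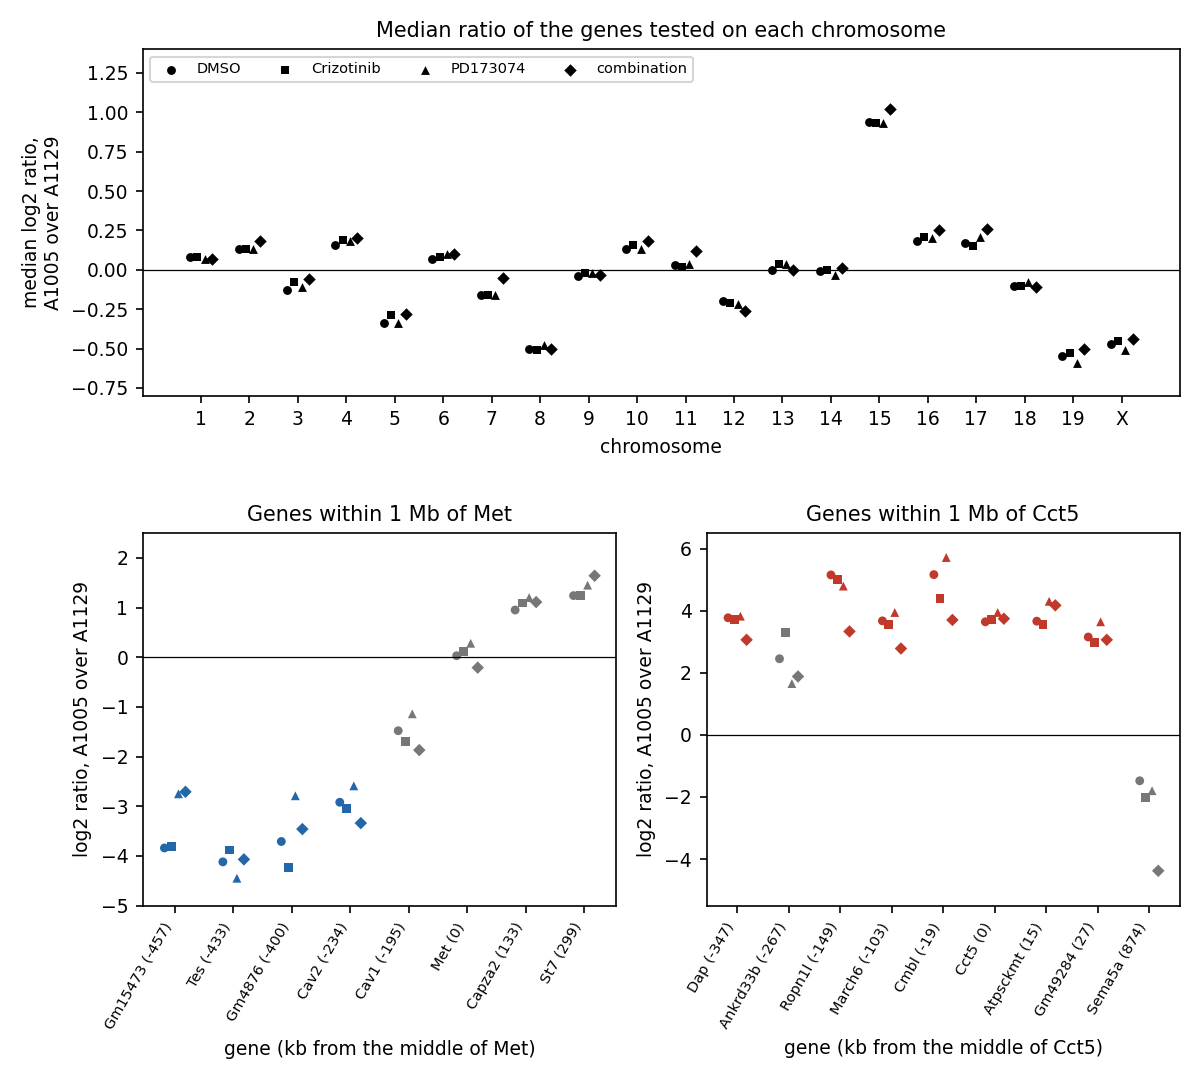
Top, median log2 ratio (A1005 over A1129) of the tested genes on each autosome and the X chromosome in the 4 treatments. Bottom, log2 ratio in each treatment of the genes within 1 Mb of Met and of Cct5 that reached a mean of 10 CPM in a line, in genome order with the distance in kb, red for genes higher in A1005 in every treatment, blue for A1129 and grey for neither. Chromosome 15 lies near 1 in all treatments, the genes shown before Met are below 0, Capza2 and St7 after it above, and the genes around Cct5 lie between 1 and 6 except Sema5a.

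Of 2340 genes 4-fold apart in at least 1 treatment, 1029 were so in all 4. Of the 1016 genes 4-fold higher in A1005 with DMSO, 875 (86.1%) were so with Crizotinib, 825 (81.2%) with PD173074 and 724 (71.3%) with the combination. Of the 584 genes 4-fold higher in A1129 with DMSO, 506 (86.6%), 491 (84.1%) and 442 (75.7%) were so with the 3 drug treatments. The combination thus kept the fewest. Within A1005, 373 genes (2.70%) were 4-fold higher with the combination than with DMSO and 349 (2.52%) lower, and within A1129 639 (4.62%) and 418 (3.02%). Across genes, which are not independent replicates, the line ratio with DMSO had a Pearson's r of 0.956 with that in Crizotinib, 0.937 with PD173074 and 0.851 with the combination, over 13836 genes from separate libraries of the same lines. Of the 1029 separated genes, 478 had a smaller gap with the combination than with DMSO and 551 a larger one, 394 moved by 2-fold or more and 115 moved by 4-fold or more.

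The 5 better-counted genes with the widest range of the 4 ratios were not separated, since the sign or size of the gap differed between treatments. Bmp2, a bone morphogenetic protein, had 2.34, 4.44, 7.25 and 23.8 CPM in A1005 and 26.8, 30.9, 7.23 and 2.76 CPM in A1129, so the log2 ratio went from -3.44 with DMSO to 3.05 with the combination. Saa3, an acute phase protein, had 11.6, 2.05, 311 and 1006 CPM in A1005 and 25.1, 16.7, 139 and 167 CPM in A1129. Hp, which encodes haptoglobin and is another acute phase gene, had 6.87, 1.37, 112 and 260.3 CPM and 10.1, 7.86, 50.7 and 59.1 CPM. Both acute phase genes were higher in A1129 with DMSO and Crizotinib and higher in A1005 with PD173074 and the combination. Flt1, a VEGF receptor, had 18.3, 26.5, 20.1 and 46.4 CPM in A1005 and 56.6, 92.3, 12.7 and 6.83 CPM in A1129, so it was lower with PD173074 than with DMSO in A1129 and not in A1005. Pde4b, a cAMP phosphodiesterase, had 61.8, 58.3, 40.2 and 36.7 CPM in A1005 and 2.37, 3.76, 8.94 and 33.0 CPM in A1129, and its gap closed from a log2 ratio of 4.63 to 0.15. With 1 library per line and treatment, none of these shifts has a replicate.

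**Figure D5:**
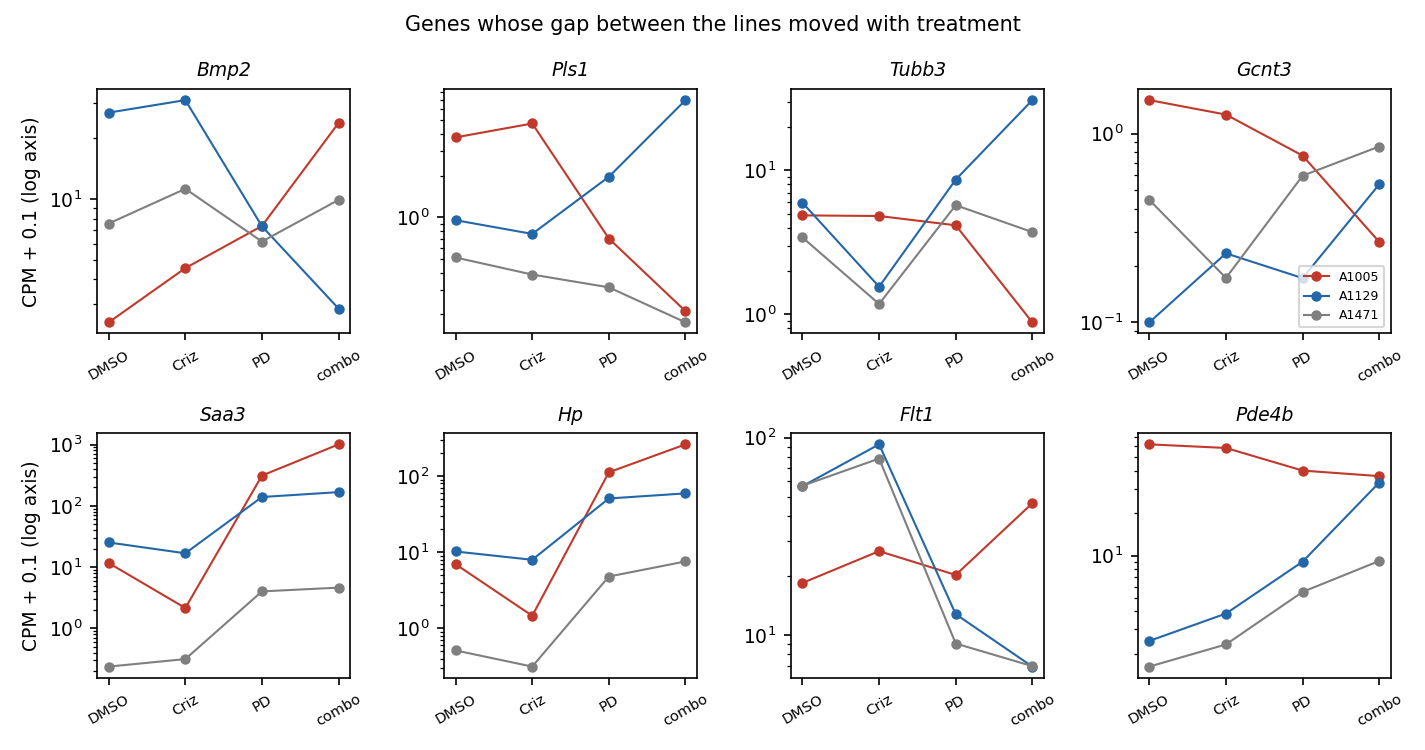
CPM plus 0.1 (log axis) of 8 genes in the 4 treatments, 1 library per point, with A1005 in red, A1129 in blue and A1471 in grey, and lines that only join the libraries of a line. Bmp2, Pls1, Gcnt3, Saa3, Hp and Flt1 have opposite signs of the gap between A1005 and A1129 with DMSO and with the combination. The gap of Tubb3 widens, and that of Pde4b closes.

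The third line of the series, A1471, was compared as a reference for where each line stands. Of the 634 genes higher in A1005, A1471 was nearer to A1129 in every treatment at 435 (68.6%) and nearer to A1005 at 90 (14.2%). Of the 395 genes higher in A1129, it was nearer to A1129 at 192 (48.6%) and nearer to A1005 at 137 (34.7%). At most of the A1005-higher genes, A1471 was thus nearer to A1129. By the same 4-fold rule 658 genes (4.76%) were higher in A1005 than in A1471 and 266 (1.92%) lower, against 294 (2.12%) and 165 (1.19%) for A1129. These comparisons share libraries with that of A1005 and A1129.

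Single genes show how the lines divide. Col1a1 (mean 0.401 CPM), Col1a2 (0.331 CPM) and Lox (1.04 CPM) were also near 0 in A1471, as in A1129, and Myh10 (347 CPM), Prrx1 (255 CPM) and Acan (372 CPM) were as high there as in A1129 or higher. Col3a1 went against this, with 297, 322, 685 and 945 CPM in A1471, near the level of A1005. Runx3 (29.7 CPM), Ephb2 (42.5 CPM), Igf2bp1 (66.1 CPM) and Tnfrsf9 (87.7 CPM) were also read in A1471 well above A1129. Sox11 (0.0534 CPM), Mgp (4.82 CPM), Ebf3 (0.0890 CPM) and Cxcl12 (0.0367 CPM) were low in A1471 as in A1005, so that A1129 was the highest of the 3 lines in these 4. Around Cct5, A1471 was near A1129, at 681 CPM for Cct5 and 134 CPM for March6. Tes, at 2428 CPM, lay between A1005 and A1129.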

How the data were processed

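RNA from tumourspheres was sequenced on a NextSeq500 instrument. Per the labels, the authors used bcl2fastq, STAR and HTSeq with the mouse build mm10. They deposited unnormalized gene counts for 55573 Ensembl identifiers. Tool versions, the annotation release and the use of strand in counting are not given in the sources used here, so values of overlapping genes and of near-identical copies are uncertain. Reads carry no molecular identifiers, and intervals and lower bounds therefore cover counting error only.

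From the deposited counts, genes were kept by filterByExpr of edgeR 4.0.16 (minimum count 10, minimum total 15, over all 12 libraries), which left 13836 genes with at least 99.8% of the counts of each of the 8 libraries, and TMM factors were computed over all 12 libraries in R 4.3.3. Python 3.11.15 with pandas 2.3.3, scipy 1.17.1 and matplotlib 3.10.9 made the tables and plots. Total counts were 13031492 to 17750476 in the 8 libraries. Groups came from the sample labels. Gene positions came from GENCODE (GRCm38), which holds 13834 of the tested genes.

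The genes named are, for each line, the 12 with the largest smallest ratio and the 5 most counted among separated genes whose average log2 CPM reached 3 (called better-counted), members of the gene lists, a set of receptor, marker and tumour genes named whatever their values, markers of other cell types, the 5 with the widest range of ratios, genes of the runs of neighbours and the 3 with the largest opposite response, with exceptions stated where they occur. The comparison, the lists and the rule were chosen with earlier results of these data known. Alternatives were DESeq2 1.42.0 size factors, total counts, TMM from the 8 libraries, no filter, a mean of 5 CPM, thresholds of 2-fold and 8-fold, a prior count of 0.5, leaving out each treatment, and an edgeR fit with treatment as a block. The fold rule and the edgeR fit were tested on simulated counts.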

Additional observations from a re-analysis of the deposited data

Results flagged for a closer look

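4 genes moved by 4-fold or more in opposite directions in the 2 lines between DMSO and the combination. Each line has 1 library per treatment, so the differences in response were not tested. Pls1, an actin-bundling protein of microvilli, had a log2 response of -3.95 in A1005 and 2.83 in A1129, a difference of -6.78, and was read 3.67, 4.65, 0.604 and 0.111 CPM and 0.855, 0.660, 1.86 and 6.89 CPM. The response of Bmp2 was 3.27 in A1005 and -3.22 in A1129, a difference of 6.49. Tubb3, a neuronal tubulin, responded by -2.42 in A1005 and 2.36 in A1129, a difference of -4.78, and A1471 by 0.12. Gcnt3, a mucin glycosyltransferase, responded by -2.35 in A1005 and 2.09 in A1129, a difference of -4.44, at 0.167 to 1.41 CPM and 0 to 0.439 CPM, which is few reads. No other tested gene met this rule.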

How the results depend on the processing

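The counts of 634 genes higher in A1005 and 395 higher in A1129 stayed within 1.5 times under DESeq2's size factors (635 and 393), total counts alone (619 and 401), TMM from the 8 libraries (641 and 388), no filter (654 and 395) and a prior count of 0.5 (694 and 454). Leaving out each treatment in turn gave 659 to 748 and 413 to 454 genes, both highest without the combination. These counts could not fall, since the rule then asks for fewer treatments. They moved further with a mean of at least 5 CPM (360 and 181), since low genes were removed, with a 2-fold threshold (1267 and 814) and with an 8-fold threshold (357 and 236). An edgeR fit with treatment as a block, which takes the 4 libraries of a line as replicates although they are not, called 1031 and 662 genes at an adjusted p under 0.05 and at least 4-fold on average. It held all 634 and 395 genes of the fold rule, which asks for 4-fold in every treatment. Both used the same 8 libraries, so this adds no separate support. Of 1512 alternative values of the 216 named genes, 1453 moved by less than the SD over treatments and 59 by more, all of the latter with a prior count of 0.5, and no separated gene changed sign. Each line is 1 tumour, so the data do not show whether another pair of spindloid tumours would differ at the same genes, and treatment and library preparation cannot be told apart within a line.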
